A study of Mus musculus with 79 samples.

Results

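9 genes that encode transcription factors of the GABA interneuron lineages were followed across the 5 sample groups of a mouse brain data set: Dlx1, Dlx2, Dlx5, Dlx6, Lhx6, Sox6, Prox1, Npas1 and Nkx2-1. They were taken by name, as 9 of the 25899 genes of the deposited expression table, with earlier results of these data known. The libraries hold ribosome-bound mRNA obtained by bacTRAP, in which a BAC transgene (a bacterial artificial chromosome carrying a gene's promoter) makes chosen cells tag their ribosomes with eGFP on the protein L10a, so that an antibody against eGFP pulls those ribosomes down with their mRNA. All mice were heterozygous for such a transgene on a C57BL/6J background, under the promoter of the dopamine receptor gene Drd1a (D1) or Drd2 (D2), and all libraries pool tissue from 3 mice, of both sexes in all but 2 D1 PFC libraries, for which the labels leave the sex of some mice open; ages were not given in the sources used here. The groups are D1 prefrontal cortex (PFC, n = 19), D1 dorsal striatum (DS, n = 15), D2 DS (n = 16), D1 ventral striatum (VS, punches of the nucleus accumbens, n = 15) and D2 VS (n = 14). No D2 libraries of the PFC were analysed here. The transgene marks every cell in which its promoter is active, so a D1 PFC library is a mixture of cell types, and a bulk level cannot tell fewer cells of a type from less RNA per cell.

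GABA interneurons of the cortex and striatum arise in the ganglionic eminences of the embryonic forebrain. DLX homeodomain proteins act in nearly all of these progenitors, and the Dlx genes lie in convergently transcribed pairs that share enhancers. In the medial ganglionic eminence NKX2-1 comes first and switches on Lhx6, and SOX6 acts after LHX6 in the neurons that become parvalbumin or somatostatin interneurons. PROX1 is best known in interneurons of the caudal ganglionic eminence, such as those with VIP, and NPAS1 is a bHLH-PAS repressor found in subsets of cortical interneurons. Striatal projection neurons are themselves GABA neurons of the lateral ganglionic eminence, and their lineage also passes through a stage with DLX proteins.

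The 4 Dlx members are paralogs, and because their levels differed in opposite directions between regions it matters that their reads can be told apart. In GENCODE M21 (GRCm38) Dlx1 lies at chr2:71528113-71533981 on the plus strand, 9.4 kb from the end of Dlx2 at chr2:71543408-71546754 on the minus strand. Dlx6 lies at chr6:6863334-6868568 on the plus strand, 9.2 kb from Dlx5 at chr6:6877805-6882085 on the minus strand. The stretch of 180 coding bases in which their 4 coding sequences are most alike falls in the homeobox, which encodes the DNA-binding homeodomain. It is shown here 5′ to 3′ from the GENCODE transcripts, with capitals at the 72 positions where the 4 genes do not all have the same base. In each gene it spans an exon junction: chr2:71531019-71531156 and chr2:71532264-71532305 for Dlx1, chr2:71545384-71545521 and chr2:71544883-71544924 for Dlx2, chr6:6879526-6879663 and chr6:6878447-6878488 for Dlx5, and chr6:6865134-6865271 and chr6:6867041-6867082 for Dlx6.
Dlx1: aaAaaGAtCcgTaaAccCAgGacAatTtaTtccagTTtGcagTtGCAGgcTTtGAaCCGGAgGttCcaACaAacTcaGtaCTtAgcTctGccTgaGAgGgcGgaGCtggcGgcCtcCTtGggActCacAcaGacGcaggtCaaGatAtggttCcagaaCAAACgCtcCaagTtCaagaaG
Dlx2: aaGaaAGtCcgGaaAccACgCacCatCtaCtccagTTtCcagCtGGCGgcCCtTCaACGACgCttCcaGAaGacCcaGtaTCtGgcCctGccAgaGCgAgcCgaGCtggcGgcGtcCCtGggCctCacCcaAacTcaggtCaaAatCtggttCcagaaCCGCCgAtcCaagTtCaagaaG
Dlx5: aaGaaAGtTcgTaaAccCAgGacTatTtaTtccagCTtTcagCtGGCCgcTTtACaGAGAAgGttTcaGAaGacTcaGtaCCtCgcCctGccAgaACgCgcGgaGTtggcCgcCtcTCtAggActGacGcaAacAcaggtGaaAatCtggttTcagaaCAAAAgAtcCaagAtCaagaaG
Dlx6: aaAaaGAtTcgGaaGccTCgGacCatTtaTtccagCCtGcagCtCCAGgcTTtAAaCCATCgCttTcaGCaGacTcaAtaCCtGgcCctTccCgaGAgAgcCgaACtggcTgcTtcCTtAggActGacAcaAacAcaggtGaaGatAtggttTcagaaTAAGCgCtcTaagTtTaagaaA
Even in this most alike stretch, between 71.7% (Dlx2 and Dlx6) and 77.8% (Dlx1 and Dlx6) of the bases were identical in a pair. Over all annotated transcripts of each gene and both strands, the longest exact run shared by any pair was 36 bases (Dlx1 and Dlx6), shorter than the 50-base reads.

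The other 5 members lie apart from one another. Lhx6 is at chr2:36081953-36105408, Sox6 at chr7:115470872-116038796, Prox1 at chr1:190118035-190170714, Npas1 at chr7:16455721-16477728 and Nkx2-1 at chr12:56531958-56536908, all on the minus strand. An antisense gene overlaps the exons of 3 members: Dlx1as covers 6.2% of the exonic bases of Dlx1 (20.6% of its own), Dlx6os2 covers 4.4% of those of Dlx6, and Prox1os covers 1.6% of those of Prox1. The labels do not say that strand was kept, so reads from those bases cannot be assigned to one gene. Dlx6os1 (also known as Evf2), a long noncoding RNA on the strand opposite Dlx6, surrounds that gene without sharing any annotated exonic base with it.

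**Figure D1:**
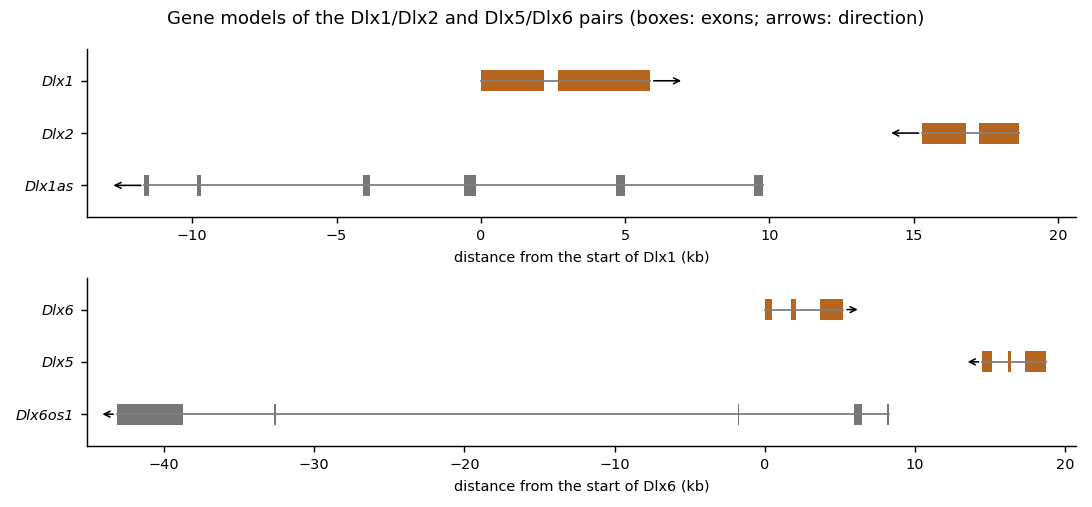
Gene models of the 2 Dlx pairs, drawn by distance in kb from the start of Dlx1 (top) and Dlx6 (bottom), with boxes for exons and arrows for the direction of transcription. In each pair the protein-coding genes, in brown, point at each other across 9.4 kb and 9.2 kb, and the antisense transcript, in grey, spans the first gene drawn.

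Reads in listed genes ran from 7.35 M to 30.8 M (M, mega) per library, with group medians between 14.6 M (D1 PFC) and 21.8 M (D2 VS). Levels are in CPM, scaled by the submitters to a total larger than the reads in listed genes, and 3 reads were worth at most 0.140 CPM in any library. Drd1a, the gene whose promoter drives the D1 transgene, was at a median of 232 CPM in D1 DS and 156 CPM in D1 VS. In D1 PFC it was at 16.7 CPM (9.52 to 44.8), a range that overlaps D2 DS (6.86 to 40.6) and D2 VS (8.23 to 29.1). Markers of cortical glutamatergic neurons were present in D1 PFC, where 8 genes summed to between 588 and 957 CPM and 6 of 7 tested were higher than in either D1 striatal group, and were carried to a lesser extent by the D1 striatal libraries (35.2 to 153 in DS, 21.6 to 122 in VS) and less in D2 DS (4.05 to 40.4). One D2 VS library, replicate 2, held the highest sum of that group, 89.0 CPM, and the counts of members called between D2 VS and D1 VS or D2 DS are given with and without it; other D2 VS values include it unless said otherwise. Markers of striatal projection neurons summed to between 51.5 and 275 CPM in D1 PFC, against at least 1251 CPM in every striatal library. Astrocyte markers also moved with region: 4 of 4 were higher in D1 PFC than in either D1 striatal group, though 3 of them (Aldh1l1, Aqp4 and Gfap) passed the filter through PFC, with sums of 8.16 to 50.9 CPM in PFC, 3.06 to 12.1 in D1 DS and at most 7.17 in D1 VS. The part of glial RNA in the results below was not tested.

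D1 PFC libraries differed from D1 DS libraries in every member that could be tested. Of 8 members that passed the filter (at least 1 CPM in at least 15 libraries), 6 were higher in PFC and 2 lower, with limma adjusted p under 0.05. Of all 11654 genes tested, 32.3% were higher and 22.5% lower, and edgeR on whole reads turned that split, with 3119 higher and 3472 lower in place of 3766 and 2622. Against D1 VS, 5 of 8 members were higher, 2 were lower and 1 did not pass, beside 27.7% higher and 35.1% lower of 11749 genes. Median-ratio scaling turned that split, with 3779 higher and 3511 lower in place of 3252 and 4129. Npas1, and against D1 DS also Dlx2, passed the filter through the PFC libraries, so their call there was partly fixed by the filter; without them, 4 of 6 members were higher and 2 lower than in D1 DS, and 4 of 7 higher and 2 lower than in D1 VS. Nkx2-1 was under the filter in both comparisons. Within libraries whose names begin with the code EM, the most frequent of 4 codes of unstated meaning (15 of 19 in PFC, 11 of 15 in D1 DS, 11 of 15 in D1 VS), 8 and 7 members were called again.

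**Figure D2:**
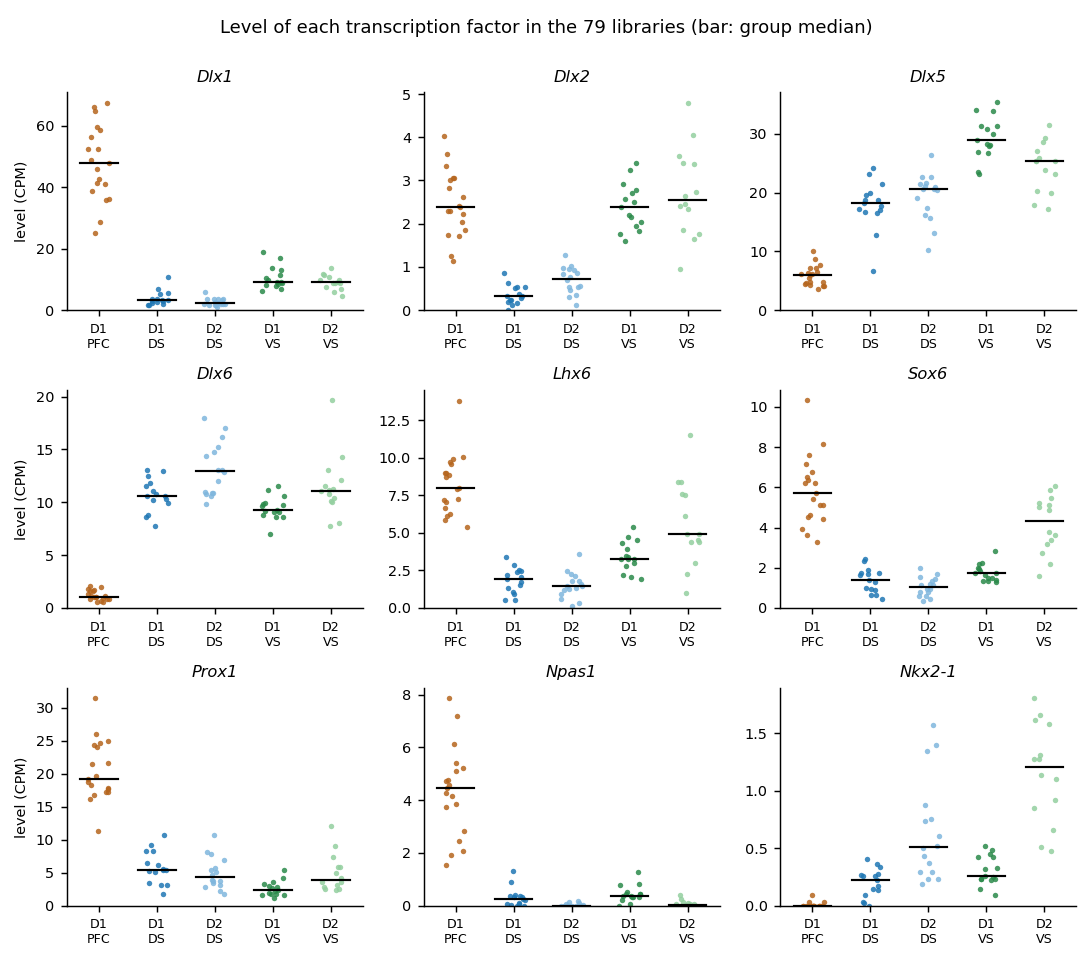
Level of each transcription factor in CPM (linear axis from 0, a scale for each gene) in the 79 libraries, 1 point a library, by group, with a bar at the group median. Dlx1, Prox1 and Npas1 stand highest in D1 PFC, Dlx5 and Dlx6 stand lowest there, and Nkx2-1 is at or near 0 there.

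Dlx1 was the most abundant member in D1 PFC. It ran from 25.0 to 67.5 CPM there (median 47.9), from 1.52 to 10.9 in D1 DS (3.19), 1.02 to 5.86 in D2 DS (2.26), 6.35 to 19.0 in D1 VS (9.17) and 4.70 to 13.6 in D2 VS (8.99). All 19 PFC libraries were above all striatal libraries. The log2 difference was 3.58 ± 0.18 (SE, adjusted p = 9.02e-21) against D1 DS, a 12.3-fold ratio of means, and 2.14 ± 0.13 (adjusted p = 8.59e-18) against D1 VS, a 4.52-fold ratio. Among EM libraries alone these differences were 3.49 and 2.12. In the order of the groups, D1 VS and D2 VS followed PFC with a difference between them that did not pass (0.18, adjusted p = 0.410 in the fit over all 79 libraries), and D1 DS and D2 DS came last (0.41 apart, adjusted p = 0.0628). Dlx1as, the antisense transcript of the same locus, ran from 3.19 to 14.5 CPM in PFC (median 8.43) and had medians of 0.620 in D1 DS and 1.42 in D1 VS. It was higher in PFC by 3.00 ± 0.19 and 1.99 ± 0.17 (adjusted p = 2.27e-17 and 8.06e-14), though it passed the filter against D1 DS through the PFC libraries, and because 20.6% of its exonic bases are shared with Dlx1, some of its reads may belong to Dlx1.

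Dlx2, the partner of Dlx1 on chromosome 2, did not have the same regional pattern. It ran from 1.13 to 4.03 CPM in D1 PFC (median 2.37), from 0 to 0.848 in D1 DS (0.317), 0.127 to 1.28 in D2 DS (0.726), 1.60 to 3.40 in D1 VS (2.38) and 0.962 to 4.80 in D2 VS (2.55). The PFC libraries overlapped both VS groups and stood above all D1 DS libraries. Against D1 DS the log2 difference was 1.80 ± 0.14 (adjusted p = 7.11e-15), and against D1 VS it was 0.01 ± 0.12 (adjusted p = 0.963), and its sign turned under 2 other scalings. D2 VS, D1 PFC and D1 VS were neighbours in the order that did not differ beyond their spread (adjusted p = 0.575 and 0.970). Within a library, log2 of Dlx1 over Dlx2 averaged 4.03 ± 0.32 (SD) in D1 PFC, 2.24 ± 0.63 in D1 DS and 1.89 ± 0.44 in D1 VS. The PFC ratio was above every D1 VS library in all 19 libraries and above every D1 DS library in 18 of 19 (permutation test, two-sided, adjusted p = 2.73e-05 for both over 30 such tests, from p = 1e-05, the smallest that 100000 permutations can give). Per kb of exon, Dlx1 was at a median of 8.88 CPM per kb in PFC and Dlx2 at 0.832. In D1 VS they were at 1.70 and 0.832. Exons were merged over all annotated transcripts, and those of Dlx1 include an intron of its coding transcript. CPM per kb is therefore only a rough scale between genes.

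Dlx5 went the opposite way. Its range was 3.57 to 10.0 CPM in D1 PFC (median 5.93), 6.67 to 24.3 in D1 DS (18.2), 10.3 to 26.4 in D2 DS (20.6), 23.1 to 35.5 in D1 VS (29.0) and 17.2 to 31.5 in D2 VS (25.4). Every PFC library was below every VS library of either receptor, and 14 of 15 D1 DS libraries were above every PFC library. The log2 difference of PFC was -1.52 ± 0.13 against D1 DS (adjusted p = 3.51e-13) and -2.26 ± 0.10 against D1 VS (adjusted p = 2.50e-22). The exception was D1 DS replicate 13, which held the 6.67 CPM.

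Dlx6 was also low in D1 PFC. It ran from 0.525 to 2.08 CPM there (median 1.05), 7.78 to 13.1 in D1 DS (10.6), 9.81 to 17.9 in D2 DS (12.9), 6.96 to 11.5 in D1 VS (9.27) and 7.79 to 19.6 in D2 VS (11.1). No PFC library reached the lowest striatal library, and the 4 striatal groups overlapped one another. The log2 differences of PFC were -2.77 ± 0.12 and -2.61 ± 0.11 (adjusted p = 1.58e-22 and 4.80e-23), and mean CPM was 9.02-fold and 7.97-fold higher in D1 DS and D1 VS. In the order D2 DS, D2 VS, D1 DS and D1 VS, no striatal neighbours differed beyond their spread (adjusted p between 0.162 and 0.567), but groups further apart did in the same fit, with D2 DS above D1 VS by 0.44 (adjusted p = 0.000420) and above D1 DS by 0.27 (adjusted p = 0.0417). Log2 of Dlx5 over Dlx6 was 1.93 in PFC, 0.68 in D1 DS and 1.58 in D1 VS; all 19 PFC libraries were above every D1 DS library, by 1.25 on average (adjusted p = 2.73e-05, permutation test), while the difference of 0.35 from D1 VS (adjusted p = 0.0109) was 0.27 among EM libraries (adjusted p = 0.123) and 0.115 with a pseudocount of 1 (adjusted p = 0.340). By CPM per kb, Dlx5 was the first of the 9 members in D1 DS (median 8.04) and D1 VS (12.8), and Dlx1 was the first in D1 PFC.

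Dlx6os1 did not follow Dlx6. This noncoding RNA ran from 15.4 to 35.6 CPM in D1 PFC (median 24.4), 9.50 to 19.4 in D1 DS (12.0) and 11.1 to 26.4 in D1 VS (16.1), and the groups overlapped. Its PFC level was higher by 0.93 ± 0.11 (adjusted p = 3.07e-09) and 0.54 ± 0.11 (adjusted p = 4.94e-05). The RefSeq table of promoters (GRCm38.p6) holds 2 start sites of Dlx6os1 and 7 of the 9 members, with Dlx5 and Dlx6 not among them. The 6-letter homeodomain core TAATTA, which reads the same on both strands, was found in the 250 bases before both Dlx6os1 starts, in 0 of the windows of those 7 members and in 5.65% of 27025 genes. The window that holds it 2 times, between Dlx6 and Dlx5 at chr6:6869534-6869783 on the minus strand, is shown with the matches in capitals, since the transcript that differs from its neighbour starts there.
Dlx6os1: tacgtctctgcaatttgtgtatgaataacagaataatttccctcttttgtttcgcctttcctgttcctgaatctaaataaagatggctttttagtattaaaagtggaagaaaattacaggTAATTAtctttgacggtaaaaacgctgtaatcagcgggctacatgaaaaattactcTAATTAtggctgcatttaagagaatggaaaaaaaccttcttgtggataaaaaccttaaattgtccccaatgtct

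**Figure D3:**
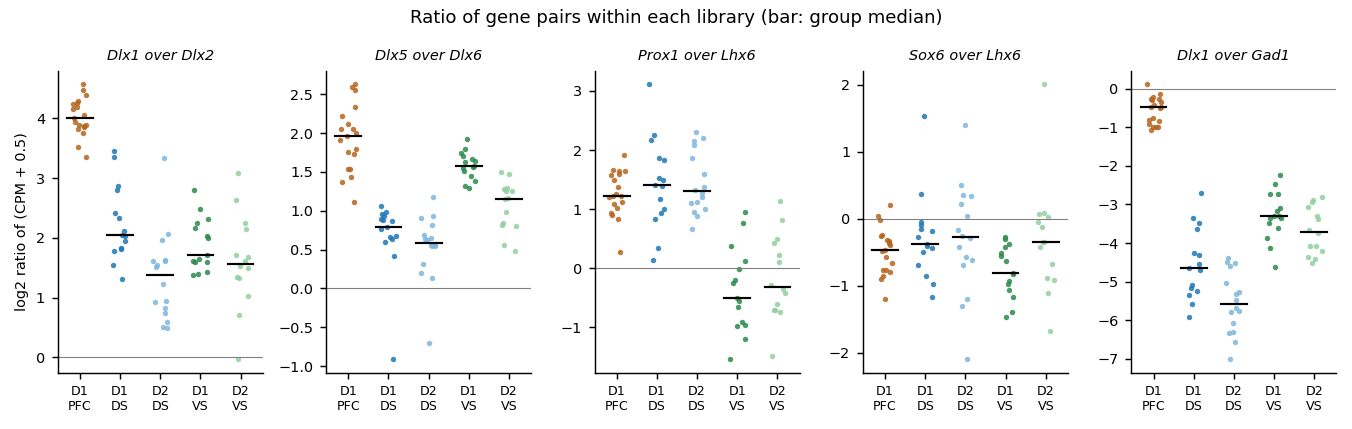
Log2 ratio of 2 genes within each library (CPM + 0.5), 1 point a library, by group, with a bar at the group median. Dlx1 over Dlx2 and Dlx1 over Gad1 are highest in D1 PFC, with group means of 4.03 and -0.56, and Prox1 over Lhx6 is near or below 0 in both VS groups.

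Nkx2-1, which specifies the medial ganglionic eminence and persists in some adult striatal interneurons, was at 0 in 16 of 19 D1 PFC libraries and had 6 reads in all of them together (highest 0.0906 CPM). It ran from 0 to 0.404 CPM in D1 DS (median 0.227), 0.188 to 1.57 in D2 DS (0.507), 0.0907 to 0.520 in D1 VS (0.262) and 0.474 to 1.80 in D2 VS (1.21). More than 3 reads of it were found in 1 of 19 PFC libraries, 12 of 15 D1 DS libraries and 14 of 15 D1 VS libraries. The lowest D1 VS library (0.0907 CPM, 3 reads) and the highest PFC library (0.0906 CPM, 4 reads) could not be told apart at this depth, and the D2 groups were the highest within each striatal region. Without a filter on low values the difference of PFC was -0.44 ± 0.06 from D1 DS and -0.65 ± 0.05 from D1 VS (adjusted p = 3.02e-07 and 7.77e-13), on a scale that understates changes at such levels. In the same kind of fit D1 was lower than D2 by 0.65 ± 0.15 in DS and 1.00 ± 0.12 in VS (adjusted p = 0.00173 and 3.25e-07). Among EM libraries alone, mean levels were 0.18 CPM in D1 DS, 0.59 in D2 DS, 0.30 in D1 VS and 1.34 in D2 VS.

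Lhx6, the LIM homeodomain factor that NKX2-1 switches on, was detected in all libraries. Its range was 5.37 to 13.8 CPM in D1 PFC (median 8.01), 0.523 to 3.40 in D1 DS (1.94), 0.121 to 3.56 in D2 DS (1.46), 1.93 to 5.40 in D1 VS (3.28) and 0.982 to 11.5 in D2 VS (4.93). PFC stood above both DS groups without overlap, met D1 VS at a single library and overlapped D2 VS. The log2 difference was 1.98 ± 0.15 against D1 DS and 1.16 ± 0.12 against D1 VS (adjusted p = 1.30e-14 and 1.57e-11), and 0.64 against D2 VS in the fit over all libraries (adjusted p = 0.00280).

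Sox6, an SRY-box factor, ran from 3.26 to 10.3 CPM in D1 PFC (median 5.72), 0.426 to 2.45 in D1 DS (1.38), 0.348 to 2.00 in D2 DS (1.05), 1.28 to 2.83 in D1 VS (1.73) and 1.59 to 6.07 in D2 VS (4.31). All PFC libraries were above all libraries of D1 DS, D2 DS and D1 VS, and they overlapped D2 VS. The PFC difference was 1.79 ± 0.15 against D1 DS and 1.46 ± 0.12 against D1 VS (adjusted p = 1.22e-13 and 1.84e-14). Log2 of Sox6 over Lhx6 did not pass between PFC and D1 DS (means -0.48 ± 0.35 (SD) and -0.28, difference -0.19, adjusted p = 0.365). It was lower in D1 VS (mean -0.78), by 0.30 from PFC and 0.49 from D1 DS (adjusted p = 0.0404 and 0.0183, permutation test). Under the alternatives these adjusted p reached 0.114 and 0.207. Sox6 is also a gene of oligodendrocyte precursors. Summed over 5 markers, those cells gave totals of 4.01 to 17.2 CPM in PFC, 2.17 to 10.1 CPM in D1 DS and 2.27 to 6.57 CPM in D1 VS, and 1 of the 2 that could be tested was higher in PFC than in D1 DS (Olig1, by 0.51), as were 2 of 2 against D1 VS; the part of these cells in the Sox6 level was not tested.

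Prox1, a homeodomain factor of caudal interneurons, was the second most abundant member in D1 PFC by CPM, from 11.3 to 31.5 (median 19.2). It ran from 1.72 to 10.7 in D1 DS (5.44), 1.77 to 10.8 in D2 DS (4.31), 1.18 to 5.47 in D1 VS (2.32) and 2.35 to 12.0 in D2 VS (3.91). All PFC libraries were above all libraries of D1 DS, D2 DS and D1 VS, and they overlapped D2 VS. Its difference was 1.81 ± 0.16 against D1 DS and 2.79 ± 0.13 against D1 VS (adjusted p = 2.91e-13 and 1.77e-21), so in D1 libraries Prox1 and Lhx6 ordered the 2 striatal regions in opposite ways. In D2 libraries Lhx6 was lower in DS by 1.58, and Prox1 did not pass (0.02, limma adjusted p = 0.965). Log2 of Prox1 over Lhx6 was 1.26 ± 0.39 (SD) in PFC and 1.43 in D1 DS (difference -0.17, adjusted p = 0.459), but -0.37 in D1 VS, 1.63 below PFC and 1.80 below D1 DS (adjusted p = 2.73e-05 for both, permutation test).

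Npas1 was near 0 in the D2 striatal groups. It ran from 1.54 to 7.85 CPM in D1 PFC (median 4.45), 0 to 1.33 in D1 DS (0.255), 0 to 0.187 in D2 DS, 0 to 1.28 in D1 VS (0.385) and 0 to 0.417 in D2 VS (0.0384). The PFC libraries did not overlap any striatal group, and 11 of 16 D2 DS libraries and 6 of 14 D2 VS libraries were at 0. The difference was 2.57 ± 0.18 against D1 DS and 2.32 ± 0.17 against D1 VS (adjusted p = 7.72e-16 and 1.26e-15); edgeR on whole reads put it at 3.65 and 3.33. Cortical glutamatergic markers were higher in D1 DS than in D2 DS for 7 of 7 genes tested (4 of them passed the filter through D1 DS), beside 25.9% of all genes that passed in either direction, and so in the same direction as Npas1 (0.53 ± 0.13 without a filter on low values, adjusted p = 0.00571), and the part of cortical RNA in the striatal level of Npas1 was not tested.

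**Figure D4:**
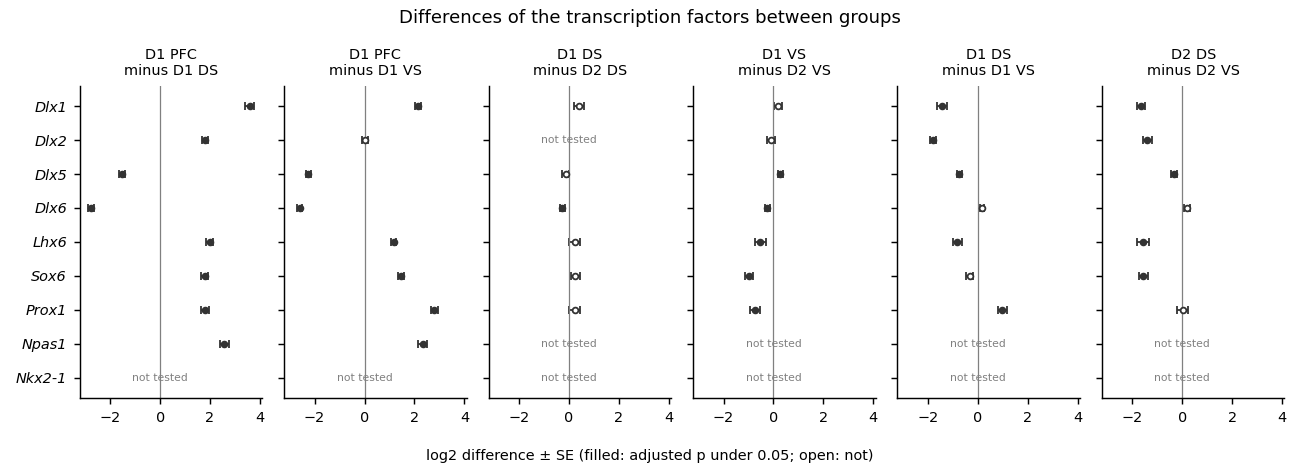
Log2 difference ± SE of each transcription factor in the 6 comparisons of groups (x axis, log2 of CPM + 0.5), filled where the limma adjusted p is under 0.05 and open where it is not. PFC differences are between -2.77 and 3.58, and those between D1 and D2 libraries are between -0.99 and 0.41.

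Other genes of the same lineages were counted from 2 lists. Of 20 markers of GABA interneuron subclasses, 16 could be tested against D1 DS, of which 14 were higher in PFC and 2 lower, beside 32.3% higher and 22.5% lower of all genes. For 4 of the 14 (Calb2, Htr3a, Sncg and Vip) the D1 DS median was under 1 CPM, so they passed the filter through PFC and their call was partly fixed by it; of the other 12, 10 were higher and 2 lower. Against D1 VS, 12 of 16 were higher, 2 were lower and 2 did not pass, beside 27.7% higher and 35.1% lower of all genes, and 3 of the 12 (Htr3a, Sncg and Vip) passed the filter through PFC. Vip, the neuropeptide gene of a caudal class, was higher by 4.42 ± 0.20 and 4.70 ± 0.16, and Htr3a, a serotonin-gated channel of caudal classes, by 3.40 ± 0.16 and 3.77 ± 0.11. Among genes of medial classes, Sst was higher by 1.92 ± 0.23 and 2.66 ± 0.24 and Pvalb by 1.60 ± 0.26 and 3.07 ± 0.23. Reln, the extracellular protein reelin, was lower by 2.63 and 1.00 on the log2 scale, and Lamp5, which marks neurogliaform cells in cortex, by 1.56 and 1.02.

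Of 15 other transcription factors of GABA lineages, 13 could be tested, and in both comparisons 10 were higher in PFC, 2 were lower and 1 did not pass, beside the same shares of all genes (32.3% higher and 22.5% lower, and 27.7% and 35.1%). In both, 3 of the 10 (Maf, Npas3 and Sp8) passed the filter through PFC. Maf (3.17 ± 0.14 and 3.25 ± 0.13), Satb1 (2.20 ± 0.12 and 2.61 ± 0.11), Nr2f1 and Nr2f2 were among those higher. Zfhx3, a zinc finger homeobox gene that striatal projection neurons also use, was lower (-2.97 ± 0.13 and -2.80 ± 0.12). Of the genes for making GABA and loading it into vesicles, Gad1, Gad2 and Slc32a1 were lower in PFC in both comparisons. Gad1, which encodes a GABA-synthesizing enzyme, was at 48.3 to 93.3 CPM in PFC (median 69.7) and 66.5 to 145 in D1 DS (80.1), a difference of -0.39 ± 0.12 (adjusted p = 0.00391). Relative to Gad1 in the same library, log2 of Dlx1 was -0.56 ± 0.35 (SD) in PFC, -4.53 in D1 DS and -3.30 in D1 VS, and all 19 PFC libraries were above all libraries of both (adjusted p = 2.73e-05).

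Across the 19 D1 PFC libraries, members correlated in part with one another. Among 28 pairs of 8 members, 22 had a positive Pearson r on log2(CPM + 0.5), with a median of 0.27 and a range from -0.52 to 0.68. With all other genes, the median r of a member ran from -0.05 (Dlx6) to 0.12 (Dlx1), and its upper quartile from 0.13 to 0.37. After adjustment over 52 relations, which include those with Gad1, Slc17a7 and Drd1a, 3 passed by permutation test. Dlx1 and Dlx2 had r = 0.68 (adjusted p = 0.0430; Spearman's rho 0.76, adjusted p = 0.0203), and r was 0.80 without the 2 libraries farthest from the median of Dlx1. Sox6 and Npas1 had r = 0.67 (adjusted p = 0.0430; rho 0.69, adjusted p = 0.0267), which was 0.79 in the 15 EM libraries and 0.46 without the 2 farthest libraries, on which it rested in part. Dlx2 and Gad1 had r = 0.65 (adjusted p = 0.0430; rho 0.71, adjusted p = 0.0267), and 0.55 without the 2 farthest. With median-ratio scaling these 3 were at 0.65, 0.64 and 0.63, and 0 of the 52 passed. Dlx6 and Lhx6 had the most negative value, -0.52 (adjusted p = 0.136), and Dlx5 and Dlx6 had 0.38 (adjusted p = 0.277). With Drd1a, the values of Npas1, Prox1, Sox6 and Lhx6 were between -0.51 and -0.47 and that of Dlx6 was 0.46, and none of these passed (adjusted p between 0.136 and 0.147). All values of a library share its scaling and its mixture of cells, so these values describe libraries and not cells.

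**Figure D5:**
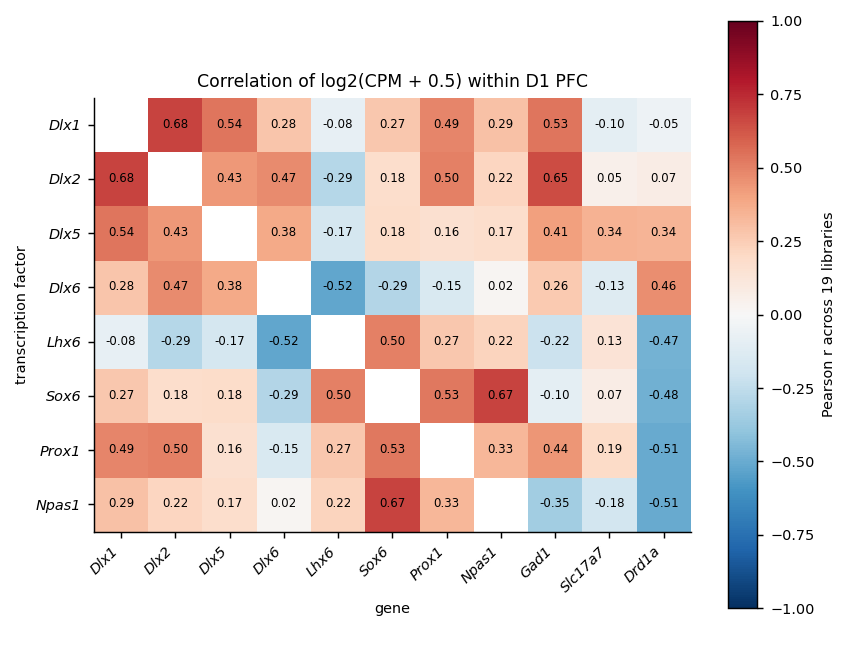
Pearson r between members (rows) and members, Gad1, Slc17a7 and Drd1a (columns) across the 19 D1 PFC libraries, with red for positive and blue for negative values. The largest values are 0.68 for Dlx1 with Dlx2 and 0.67 for Sox6 with Npas1, and Lhx6, Sox6, Prox1 and Npas1 have negative values with Drd1a.

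By the distance between the 5 group means, the gene nearest to Dlx1 among 12334 was Dlx1as (0.62 log2 units), which shares exonic bases with it, and the gene with the highest r in PFC among 11553 was Dlx6os1 (r = 0.87, 19 libraries). For Dlx2 these were Slit2 (0.34), a secreted guidance protein, and an unnamed transcript, 2610001J05Rik (r = 0.72). Dlx5 had 2010204K13Rik by group means (0.12) and Sp9 (r = 0.85), a zinc finger factor of GABA lineages. Dlx6 had Arpp21 by group means (0.23) and Mettl15 by r (0.65). Lhx6 had Bcl7c (0.21) and Dido1 (r = 0.82), and Sox6 had Fmnl2 (0.28) and Nt5dc2 (r = 0.84). Prox1 had Clstn2 (0.43) by group means, and by r it had Tcf4 (0.84) and then Erbb4 (0.79), a neuregulin receptor of cortical interneurons. Npas1 had Rhou (0.18) and Acta1 (r = 0.88). Each is the best of all genes compared over few points, and is given as a description without a test.

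Between D1 DS and D2 DS, Dlx6 alone of 6 members tested passed, beside 25.9% of 11090 genes that passed in either direction (49.6% of them higher in D1, and 59.7% when scaled to reads in listed genes). Receptor was partly tied to name code, since OdP held 8 of 16 D2 DS libraries and 0 of 15 D1 DS libraries. In VS it held 5 of 14 D2 and 1 of 15 D1 libraries. Over all genes, calls of 1424 higher and 1447 lower in D1 became 734 and 655 among EM libraries (11 D1, 8 D2). With the name code as a covariate they were 768 and 890. Dlx6 was lower in D1 DS by 0.27 ± 0.09 on the log2 scale (adjusted p = 0.0292). The call was lost among EM libraries (-0.21, adjusted p = 0.264) and without D1 DS replicate 8, D1 DS replicate 11 or D2 DS replicate 14, where it was -0.25, -0.26 and -0.24 (adjusted p = 0.0521, 0.0512 and 0.0525). Dlx1 (0.41 ± 0.21, adjusted p = 0.146) and Prox1 (0.22 ± 0.21, adjusted p = 0.450) were among those that did not pass. Dlx2, under the filter here, was lower in D1 DS by 0.49 ± 0.14 without a filter (adjusted p = 0.0113).

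Between D1 VS and D2 VS, 5 of 7 members passed, 1 higher and 4 lower in D1, beside 24.1% higher and 23.6% lower of 11410 genes. Scaling to reads in listed genes moved the share of calls that were higher from 50.5% to 66.1% and the median of all genes from 0.02 to 0.13. Sox6 was lower in D1 VS by 0.99 ± 0.15 (adjusted p = 2.85e-06), with 11 of 14 D2 libraries above every D1 library, and by 1.02 without D2 VS replicate 2. Prox1 was lower by 0.74 ± 0.20 (adjusted p = 0.00355), and Lhx6 by 0.52 ± 0.21 (adjusted p = 0.0399), with overlapping groups. Dlx6 was lower by 0.24 ± 0.10 (adjusted p = 0.0463) and Dlx5 higher by 0.28 ± 0.09 (adjusted p = 0.0112). All 5 passed without D2 VS replicate 2. With the share of reads in listed genes as a covariate only Sox6 and Prox1 did. Calls over all genes fell too under that covariate, from 2751 higher and 2692 lower to 644 and 574. Nkx2-1, under the filter, was at a median of 0.262 CPM in D1 VS and 1.21 CPM in D2 VS, with 12 of 14 D2 libraries above every D1 library. Markers of cholinergic interneurons, which come from the Nkx2-1 lineage, moved in part the same way, with 3 of 4 tested lower in D1 VS (Lhx8, Chat and Slc5a7, which passed the filter through D2 VS, so that their call was partly fixed by it) and Isl1, which D1 projection neurons also use, higher. Their sums were 9.91 to 18.1 CPM in D1 VS and 8.06 to 19.1 CPM in D2 VS, and Chat, the gene for the enzyme that makes acetylcholine, was at a median of 0.307 CPM in D1 VS and 3.05 CPM in D2 VS. Oligodendrocyte precursor markers did too, with 2 of 2 tested lower in D1 VS and sums of 2.27 to 6.57 CPM in D1 and 5.77 to 17.8 CPM in D2. The part of either cell type in these differences was not tested.

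D1 DS was lower than D1 VS in 4 of 7 members tested and higher in 1, beside 24.5% lower and 10.1% higher of 11332 genes. Dlx2 was lower by 1.79 ± 0.13, Dlx1 by 1.44 ± 0.20, Lhx6 by 0.82 ± 0.17 and Dlx5 by 0.74 ± 0.11 (adjusted p between 1.31e-13 and 0.000332), and Prox1 was higher by 0.98 ± 0.19 (adjusted p = 0.000132). Dlx2 passed the filter through the VS libraries in both receptor groups, so its call between regions was partly fixed by the filter. Sox6 did not pass in D1 (-0.33 ± 0.15, adjusted p = 0.0808). In D2 libraries 5 of 7 members were lower in DS, beside 20.6% lower and 7.93% higher of 11187 genes. Dlx1 (-1.66 ± 0.17), Lhx6 (-1.58 ± 0.25), Sox6 (-1.57 ± 0.17) and Dlx2 (-1.40 ± 0.17) passed with adjusted p of at most 6.86e-06, Dlx5 (-0.33 ± 0.11) with 0.0253, and Prox1 was at 0.02 ± 0.22 (adjusted p = 0.965). Without D2 VS replicate 2 the same 5 passed, with Dlx1 at -1.64, Lhx6 at -1.63, Sox6 at -1.60, Dlx2 at -1.37 and Dlx5 at -0.32 (adjusted p = 0.0361). Cholinergic markers moved the same way in D2 libraries, where 3 of 4 tested were lower in DS (Lhx8 by 1.14, Isl1 by 0.74 and Chat by 0.70 on the log2 scale), with sums of 3.83 to 15.5 CPM in D2 DS and 8.06 to 19.1 CPM in D2 VS. In D1 libraries 1 of the 5 could be tested (Isl1, -0.13, adjusted p = 0.307), and the part of these cells in the regional differences was not tested. In both comparisons median-ratio scaling moved the median of all genes from -0.12 to -0.01 and 0.00 and made the split of calls nearly even (51.1% and 49.6% higher, from 29.2% and 27.8%). Under that scaling the Dlx5 difference in D2 was -0.21 (adjusted p = 0.199), and Dlx6, at 0.16 ± 0.08 (adjusted p = 0.103) in D1, was higher in DS by 0.27 (adjusted p = 0.00743).

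A test of the receptor difference between regions, as D1 minus D2 in DS less the same in VS, passed for 1 of 7 members, Sox6 (1.24 ± 0.23, adjusted p = 0.000210), beside 1.93% of 11873 genes positive and 0.707% negative. Without D2 VS replicate 2 it was 1.27 (adjusted p = 0.000179). Prox1 had 0.96 ± 0.30 (adjusted p = 0.0702) and Lhx6 0.76 ± 0.31 (adjusted p = 0.216), and Dlx6 was nearest to 0 (-0.03 ± 0.13).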

How the data were processed

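The deposited table holds CPM values of 25899 genes in 79 libraries, made by the authors; 0 of its columns were left unused. Per the submitters' processing notes, reads were trimmed with Trim Galore 0.4.2 and cutadapt 1.9.1, checked with FastQC and aligned to GRCm38 with HISAT2. The counting program, its annotation and its use of strand are not given in the sources used here. The deposited CPM columns sum to between 309570 and 401530, so they were scaled to a larger total than the listed genes hold. Every value is a whole multiple of the value of 1 read (100% of values, tolerance 0.01 reads), which gave the reads per library, from 7.35 to 30.8 M.

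Groups came from the labels. Main tests used limma 3.58.1 (R 4.3.3) with a mean-variance trend on log2(CPM + 0.5), fitted for the 2 groups compared and adjusted over all genes with at least 1 CPM in as many libraries as the smaller group has; an adjusted p under 0.05 passed, two-sided. All differences are on that scale, which understates changes of low genes. The receptor by region test used the 4 striatal groups, and the order of groups 1 fit over 79 libraries. Ratios of 2 genes were tested by permuting libraries (100000 permutations), and p-values were adjusted over 30 tests. Alternatives were other pseudocounts (0.1 and 1), no filter, 3 other scalings, EM libraries only, covariates, edgeR 4.0.16 on whole reads, 1 fit over all libraries, leaving out single libraries and, chosen after seeing the data, a block by consecutive library names. The fits were also run on simulated independent counts with the same spread setting for all genes. Those counts do not cover changes in low genes, name codes or mixtures of cells.

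Sharing of mice between regions is not stated, so each library was taken as independent and p-values measure the spread between pooled libraries. The named genes are the members, the listed markers and the genes most like each member; the members and lists were chosen with earlier results of these data known. Coordinates are from GENCODE M21 and promoters from RefSeq, both GRCm38. Some listed genes are not reported here by name.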

Additional observations from a re-analysis of the deposited data

Results flagged for a closer look

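Sox6 stood out because its receptor difference was not the same in the 2 striatal regions. D1 minus D2 was 0.25 in DS (adjusted p = 0.280) and -0.99 in VS (adjusted p = 2.85e-06), and the limma test of that difference between regions gave 1.24 ± 0.23 (adjusted p = 0.000210). Median levels were 1.38 and 1.05 CPM in D1 and D2 DS and 1.73 and 4.31 CPM in D1 and D2 VS, with D2 VS the highest of the 4. Oligodendrocyte precursor markers summed to medians of 10.7 CPM in D2 VS, 4.05 in D1 VS, 8.72 in D2 DS and 4.37 in D1 DS, and their part in the Sox6 value was not tested.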

How the results depend on the processing

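The 8 members that passed between D1 PFC and D1 DS, and the 7 between D1 PFC and D1 VS, numbered 8 and 7 with any 1 library left out and in each alternative run other than no filter on low values, where they were 9 and 8 with Nkx2-1 added. Over single members, 574 values under the alternatives other than leaving out single libraries kept direction and side of the threshold, 21 no longer passed, 7 came to pass and 8 turned sign. Between D1 DS and D2 DS the count was 4, from 1, without a filter on low values (Dlx2, Nkx2-1 and Npas1 added), and 0 when scaled to reads in listed genes, in EM libraries, and with the name code or the share of reads in listed genes as a covariate, and 0 to 1 with 1 library left out. Over all genes, calls there went from 1424 higher and 1447 lower to 1894 and 1419 without the filter. They were 1711 and 1153 when scaled to reads in listed genes, and 734 and 655 in EM libraries. With the name code as a covariate they were 768 and 890, and with the share 1177 and 1101. Between D1 VS and D2 VS the count of members was 3, from 5, when scaled to reads in listed genes, in EM libraries and in 1 fit over all 79 libraries, and 2 with the share as a covariate. Over all genes, 2751 higher and 2692 lower calls became 3702 and 1898, 1909 and 2752, and 2787 and 2666 in these settings. With the share they were 644 and 574. The receptor by region count was 2, from 1, under quantile normalization, in EM libraries, with the name code as a covariate and over all 79 libraries, the added member being Prox1. Over all genes, 229 positive and 84 negative calls became 226 and 141, 191 and 43, 322 and 158, and 284 and 115. Of the 52 relations within D1 PFC, 0 passed under median-ratio scaling, from 3.

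Values that turned sign all lay short of the threshold. Dlx2 between D1 PFC and D1 VS was -0.0013 when scaled to reads in listed genes, -0.0747 under quantile normalization, -0.1001 in EM libraries of complete name sets with or without a block, and -0.0296 to 0.0522 with 1 library left out. In EM libraries Dlx2 was 0.0254 between D1 VS and D2 VS, and Prox1 -0.39 between D2 DS and D2 VS, as in complete name sets with or without a block. With a pseudocount of 0.1 Dlx1 over Dlx2 was 0.0206 between D2 DS and D2 VS, and Sox6 over Lhx6 was -0.007 between D1 DS and D2 DS and -0.0207 between D2 DS and D2 VS. Prox1 over Lhx6 between D1 DS and D2 DS was 0.0225 with a pseudocount of 1 and 0.42 in EM libraries, and 0.0048 between D1 VS and D2 VS in EM libraries; the cause was not tested. Under quantile normalization and edgeR the calls between D1 DS and D1 VS were 48.6% and 53.8% higher, from 29.2%, those between D2 DS and D2 VS 48.8% and 50.6%, from 27.8%, and the receptor by region calls 61.6% under quantile normalization and with reads in listed genes, from 73.2%. The labels do not say which libraries share mice, but EM libraries carry consecutive numbers in sets with 1 library a region and the same sexes (11 D1 and 8 D2 sets). With these sets as a replicate block, an alternative chosen after seeing the data, 8 members passed between D1 PFC and D1 DS, 7 between D1 PFC and D1 VS, 5 between D1 DS and D1 VS and 6 between D2 DS and D2 VS, the same numbers as in these libraries without the block. Deviations of libraries of 1 set had r above 0.1 in 6, 7 and 9 of 11 D1 sets and 5 of 8 D2 sets in those comparisons. Median r was 0.13, 0.11, 0.19 and 0.18 within a set, against 0.02, -0.01, -0.02 and 0.04 between different sets. In the first group of each comparison, 4, 3 and 5 of 11 and 1 of 8 libraries were most like their own set. Libraries of a set were thus more alike in the median, and whether they share mice is not established. At these depths 3 reads are worth up to 0.140 CPM, which limits Nkx2-1 in PFC and Npas1 in D2 libraries.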

Other observations

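Sp9, a zinc finger factor of GABA lineages that is known from D2 projection neurons, separated D1 from D2 libraries in both striatal regions. It was at medians of 3.43 CPM in D1 DS and 28.4 CPM in D2 DS, and of 6.03 CPM in D1 VS and 20.8 CPM in D2 VS. Its log2 difference was -2.78 ± 0.11 in DS and -1.68 ± 0.10 in VS (limma adjusted p = 5.12e-21 and 2.02e-15), with no overlap in either region. All name codes were used here and for the markers below, and OdP was mostly a code of D2 libraries. Lhx8, which acts in cholinergic interneurons, was at 0.0874 to 1.46 CPM in D1 VS and 2.13 to 5.65 CPM in D2 VS.

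Interneuron subclass markers also differed by receptor in DS, where 6 of 9 tested were higher in D1 and 0 lower, beside 25.9% of all genes that passed in either direction. Sst was at a median of 16.5 CPM in D1 DS and 5.50 CPM in D2 DS (1.54 ± 0.22, adjusted p = 1.01e-06), and Npy at 2.93 and 0.772 CPM (1.36 ± 0.21, adjusted p = 5.33e-06), with overlapping groups; Npy passed the filter through the D1 libraries. In VS, 5 of 13 tested were higher in D1 and 0 lower, beside 24.1% higher and 23.6% lower of all genes: Cck (1.51), Adarb2 (1.19), Calb2 (1.15), Tac2 (0.90) and Reln (0.72). There Sst was at 9.40 and 10.5 CPM (-0.08 ± 0.23, adjusted p = 0.789). Cortical glutamatergic markers were higher in D1 DS in 7 of 7 tested, of which 4 passed the filter through D1 DS, with sums of 35.2 to 153 CPM against 4.05 to 40.4 CPM, and in D1 VS in 6 of 7, of which 3 passed through D1 VS. Their part in these values was not tested.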
